A study of Mus musculus with 4 samples.

Results

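The genes of the mitochondrial respiratory chain were described in the liver of mouse fetuses heterozygous for Sox17 (Sox17+/-) and of wildtype fetuses. Members were taken by gene symbol: Nduf genes of the a, b, c, s and v series for complex I, Sdha to Sdhd for complex II, Uqcr genes for complex III, Cox4 to Cox8 subunit genes for complex IV, and Atp5 genes for complex V. This gave 78 genes of the 18193 named on the array, with 35 in complex I, 4 in complex II, 8 in complex III, 14 in complex IV and 17 in complex V. They were covered by 159 probe sets, and each gene was represented by the one with the highest mean signal. The rule leaves out some chain genes by their spelling, among them Cyc1, Cox4i1 and Ndufab1, and another 9 probe sets were left out because they name several genes.

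Sox17 encodes a transcription factor of endoderm, the extrahepatic bile ducts and arterial endothelium. The groups were Sox17+/- liver and wildtype liver, both C57BL/6 (B6), at day 17 of gestation, with 2 biological replicates and 1 single-colour array each. The dams were C57BL6 females mated with Sox17+/- males of that strain. Liver was dissected from the biliary system before RNA extraction. The sources used here do not give the sex, the altered part of Sox17 or the number of fetuses behind each replicate, and p-values measure the spread between these samples only. Values are MAS5 signals, a brightness per probe set on a linear scale, brought on each array to a mean of 500.0 after the lowest and highest 2% were trimmed. The brightest signals were 56859.5 on Sox17+/- array 1 and 32467.8 on Sox17+/- array 2, against 56988.0 on wildtype array 1 and 34406.9 on wildtype array 2. The arrays with the same number were therefore alike in range, and differences are given within each same-numbered pair as well. Sox17 itself had signals of 139 and 124 on the Sox17+/- arrays against 244 and 264 on the wildtype arrays on its brighter probe set.

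The respiratory chain passes electrons from NADH, through complex I, or from succinate, through complex II, to ubiquinone, then through complex III and cytochrome c to complex IV, which reduces oxygen. Proton pumping by complexes I, III and IV drives complex V, the ATP synthase. Complex II is also an enzyme of the citric acid cycle, pumps no protons, and is the one complex whose subunits are all encoded in the nucleus. Fetal liver holds hepatocytes and large numbers of developing blood cells, and both depend on mitochondria.

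By their median log2 difference, given below, the chain genes as a body lay close to the wildtype level in Sox17+/- liver. Both Sox17+/- signals lay above both wildtype signals for 2 tested members and below them for 8. With the deposited scaling these are 2.67% and 10.7%, against 14.5% and 18.7% of all tested genes. After quantile normalization the lower share was 30.7%, against 19.0%. A count of genes apart also depends on the spread between replicates. Between array numbers the members differed by medians of 0.30 (log2) in Sox17+/- and 0.28 in wildtype liver. Over all tested genes these medians were -0.01 and 0.01. Of the 78 members, 75 were among the brighter 50% of probe sets and were tested. Cox7b2, Cox8b and Ndufb4 were too dim, with signals between 2.32 and 79.2 on all 4 arrays. The median log2 difference, Sox17+/- minus wildtype on the log2(signal + 16) scale, was -0.04 over the 75 members, against -0.02 over all 11676 tested genes. For 47 members the difference was under 0.1 in size. With an adjusted p under 0.05 required, limma called 0 members and 0% of the 22519 probe sets. Among the members 0.9999 was the smallest adjusted p. At an unadjusted p under 0.05, limma gave 2 members, Ndufa4l2 and Cox6b2, both higher, against 1.6% of all tested genes higher, 2.55% lower and 4.15% in all. The members' share is near that background. A difference over 1 in size was seen for 2 members, Ndufa4l2 and Cox7c, against 1.85% of all tested genes. The 95% intervals had a median half-width of 0.6, and 72 of the 75 lay wholly within a 2-fold difference either way.

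**Figure D1:**
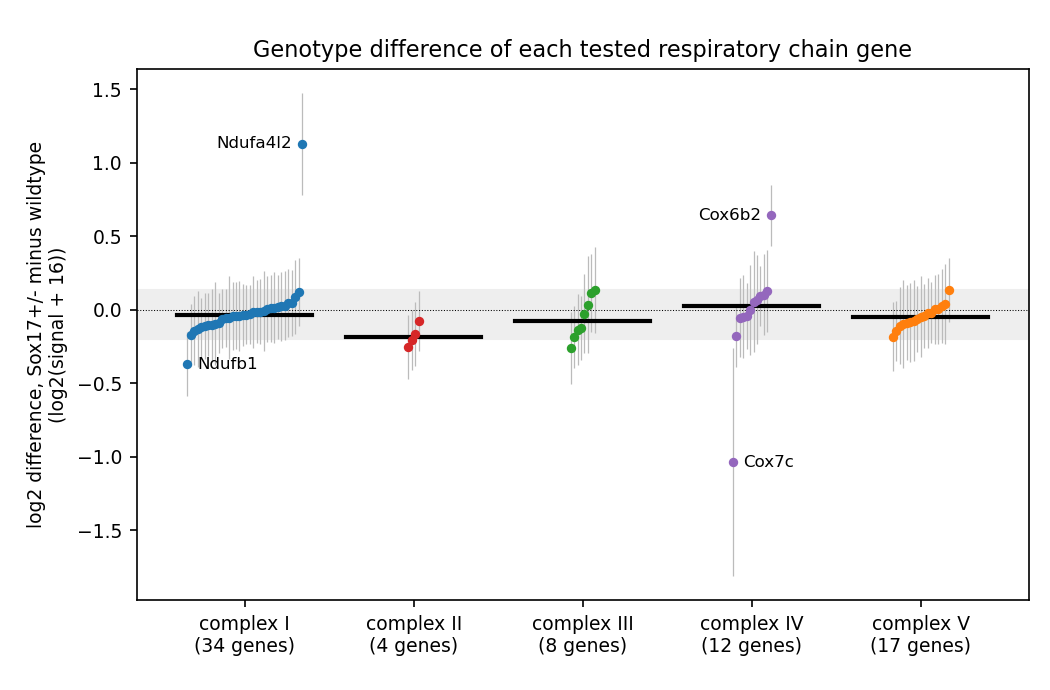
Log2 difference (Sox17+/- minus wildtype, log2(signal + 16)) of each of the 75 tested members by complex, as points with the limma standard error, a black line at the median of each complex, and a grey band for the middle 50% of all tested genes. Nearly all points sit near 0, with Ndufa4l2 at 1.13 and Cox6b2 at 0.64 above them and Cox7c at -1.04 below.

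Counting a gene as apart only where both Sox17+/- arrays lay above or below both wildtype arrays, 2 members were higher and 8 lower. These are 2.67% and 10.7% of the members, against a background of 14.5% of tested genes higher and 18.7% lower. The difference between these shares was not tested. Within the pairs, 11 of 75 members were higher in both and 30 of 75 lower in both, against 25.5% and 32.3% of all tested genes. The share lower in both pairs was thus above that of all genes, while the share lower without overlap was below it. Neither comparison was tested. The scaling of the arrays moved the counts without overlap. After quantile normalization 4 members were higher and 23 lower without overlap, or 5.33% and 30.7%, against 14.9% and 19.0% of all genes. The lower share was then above that of all genes, and with the deposited scaling it was below. After median centring 3 were higher and 1 lower, or 4% and 1.33%, against 16.1% and 11.1% of all genes.

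For most chain genes the arrays differed more by number than by genotype. The members were brighter on array 1 than on array 2 by a median of 0.30 (log2) in Sox17+/- liver and of 0.28 in wildtype liver, and 67 of the 75 were brighter on array 1 in both genotypes, against 31.5% of all tested genes. Over all tested genes the same medians were -0.01 in Sox17+/- and 0.01 in wildtype liver, and over the 2799 tested genes in the brightest 10% of probe sets they were 0.07 and 0.08. For 63 members the mean difference between numbers was larger than that between genotypes, as for 56.1% of all tested genes. The members are bright as a group, with 70 of 75 in the brightest 10% of probe sets. What the number stands for, and its part in the differences between genotypes, was not tested.

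**Figure D2:**
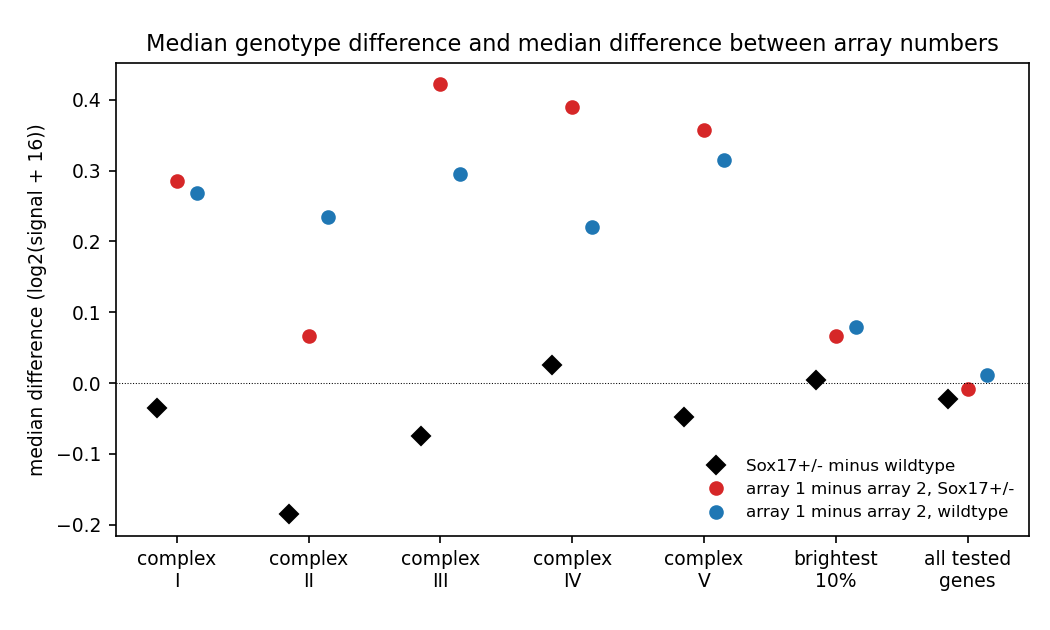
Median differences on the log2(signal + 16) scale for each complex, for the genes in the brightest 10% of probe sets and for all tested genes, with diamonds for Sox17+/- minus wildtype and circles for array 1 minus array 2 within Sox17+/- (red) and wildtype (blue). The number medians of complexes I, III, IV and V lie between 0.22 and 0.42, while their genotype medians lie between -0.07 and 0.03.

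Ndufa4l2 had the highest log2 difference among the tested members. Cox7c, at -1.04, was larger in size with a pseudocount of 1, at -1.33 against 1.13. Ndufa4l2 encodes a paralogue of Ndufa4 that is known as a target of hypoxia-inducible factor and is known to lower complex I activity under low oxygen. Its signals were 4529 and 2700 on the Sox17+/- arrays, against 1918 and 1323 on the wildtype arrays. Both Sox17+/- values lay above both wildtype values. The means were 3615 ± 1293 in Sox17+/- and 1620 ± 421 in wildtype liver (SD, n = 2 each), a ratio of 2.23. The log2 difference was 1.13 with a standard error of 0.35 (95% interval 0.24 to 2.01), 1.23 in pair 1 and 1.02 in pair 2. It did not pass limma after adjustment (adjusted p = 0.9999 over all probe sets). Leaving out 1 array at a time gave 0.76 to 1.50. Ndufa4 itself, now regarded as a subunit of complex IV although its name places it in complex I here, had 9019 and 7668 in Sox17+/- liver against 8888 and 8170 in wildtype liver, and the genotypes overlapped (log2 difference -0.04, 95% interval -0.57 to 0.50).

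The signals of other genes known to adjust mitochondria to low oxygen are set beside it. Of 9 tested genes of this list, Ndufa4l2 included, 5 were higher without overlap and 1, Hif1a, was lower, against backgrounds of 14.5% and 18.7%, and 0 passed limma after adjustment. Pdk1, a kinase that limits pyruvate entry into the citric acid cycle, had 5103 and 5732 in Sox17+/- liver against 4390 and 4359 in wildtype liver. Higd1a, a small protein that binds respiratory complexes, had 10684 and 9621 against 8586 and 7032 in wildtype. Mxi1, an antagonist of Myc, had 3399 and 3334 against 2540 and 2808 in wildtype. The genotypes did not overlap for any of these 3. Cox4i2, the low-oxygen form of a complex IV subunit, was too dim to test, with 46.4 and 81.9 in Sox17+/- liver against 10.4 and 54.2 in wildtype liver.

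Ndufa4l2 is also known as a gene of pericytes, and some pericyte genes had higher signals on the same arrays. On a pericyte list of 10 genes, chosen after these values were known, 8 were tested, of which 3 were higher without overlap and 0 lower, against 14.5% and 18.7% of all tested genes. Rgs5 had 354 and 228 in Sox17+/- liver against 77.7 and 33.7 in wildtype liver, Kcnj8 had 602 and 296 against 144 and 34.5, and Abcc9 had 1450 and 1565 against 631 and 467. Pdgfrb, Cspg4 and Notch3, markers of the same cells, had log2 differences of 0.13, 0.13 and -0.01. Anpep and Vtn lay lower with overlap, at -0.74 and -0.33, and Vtn and Notch3 were lower in both pairs. The summed signal of all 10 genes was 23856 and 16765 in Sox17+/- against 29765 and 17435 in wildtype liver, most of it Vtn, which hepatocytes also express. The part of pericytes in the Ndufa4l2 value was not tested. In these bulk samples, more cells of a type and more RNA per cell cannot be told apart.

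Cox6b2 was the other member above wildtype. It encodes a form of complex IV subunit 6b that is known mainly from testis, while Cox6b1 encodes the form found in most tissues. Cox6b2 had signals of 5626 and 4792 in Sox17+/- liver, against 3429 and 3224 in wildtype liver, with no overlap and little spread within a genotype. The means were 5209 ± 590 in Sox17+/- and 3326 ± 145 in wildtype liver (SD, n = 2 each), a ratio of 1.57. The log2 difference was 0.64 with a standard error of 0.21 (95% interval 0.11 to 1.17), 0.71 in pair 1 and 0.57 in pair 2, and it did not pass limma after adjustment (adjusted p = 0.9999). Leaving out 1 array at a time gave 0.53 to 0.76. Cox6b1 had 25452 and 17709 in Sox17+/- liver against 25252 and 19059 in wildtype liver, a log2 difference of -0.05. Cox6b2 has 1 probe set on the array, so no other probe set bears on its value.

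The start regions of this pair are shown because 1 isoform was apart between the genotypes and the other overlapped. Both windows are on chromosome 7, minus strand, from 250 bases before to 50 after the start (RefSeq, GRCm38.p6), at chr7:4753045-4753344 for Cox6b2 and chr7:30626065-30626364 for Cox6b1. Capitals mark matches to the motifs of 4 regulators of mitochondrial genes: NRF1 (GCGCA and GCGC with any 1 base between them), ETS factors such as GABPA (CCGGAAG), YY1 (AAGATGGCG) and ERR receptors (AAGGTCA), each searched on both strands.
Cox6b2: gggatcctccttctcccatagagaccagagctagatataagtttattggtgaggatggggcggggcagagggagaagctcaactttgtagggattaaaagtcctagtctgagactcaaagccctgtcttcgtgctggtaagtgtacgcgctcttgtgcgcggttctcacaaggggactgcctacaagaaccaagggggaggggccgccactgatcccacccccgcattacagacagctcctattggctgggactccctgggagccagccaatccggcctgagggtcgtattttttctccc
Cox6b1: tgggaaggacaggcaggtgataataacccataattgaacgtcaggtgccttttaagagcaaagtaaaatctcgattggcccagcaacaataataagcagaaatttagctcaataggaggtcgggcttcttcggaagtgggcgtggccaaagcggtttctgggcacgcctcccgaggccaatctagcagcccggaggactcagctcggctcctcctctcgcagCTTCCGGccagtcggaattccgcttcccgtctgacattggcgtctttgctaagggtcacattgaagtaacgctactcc
The Cox6b1 window held an ETS match at bases 223 to 229, and the Cox6b2 window held none of the 4 motifs.

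The other tissue-specific forms of complex IV subunits were dim. Cox6a2, a heart and muscle form, had 85.8 and 106 in Sox17+/- liver against 67.5 and 109 in wildtype liver. Cox7a1, another such form, had 237 and 122 in Sox17+/- liver against 180 and 150 in wildtype liver. The genotypes overlapped for both. Their counterparts of most tissues, Cox6a1 and Cox7a2, had log2 differences of -0.00 and 0.07. The summed signal of 12 striated muscle markers, of which 4 were bright enough to test, was 1349 and 1263 in Sox17+/- against 1670 and 1162 in wildtype liver. Des, which pericytes and stellate cells also express, was the one tested marker without overlap, at 251 and 195 against 125 and 69.7 in wildtype. Cox8c, a testis form, had 315 and 258 in Sox17+/- liver against 320 and 330 in wildtype liver, and lay below wildtype without overlap.

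Complex II had the lowest median with all 4 arrays, and its 4 genes all lay below wildtype in both pairs. The median log2 difference was -0.18, against -0.03 in complex I, -0.07 in complex III, 0.03 in complex IV and -0.05 in complex V. It was -0.29 in pair 1 and -0.05 in pair 2, a wider gap in the first pair. Sdhb, the iron-sulphur subunit, had 7042 and 6114 in Sox17+/- liver against 8604 and 7119 in wildtype liver. The log2 difference was -0.25 with a standard error of 0.22 and a 95% interval of -0.82 to 0.31, and the genotypes did not overlap. Sdhc, one of the membrane anchors that bind ubiquinone, had 4639 and 5106 in Sox17+/- liver against 5946 and 5301 in wildtype liver, also without overlap (log2 difference -0.21). Sdhd, the other anchor, had 5822 and 5563 in Sox17+/- liver against 7103 and 5729 in wildtype liver. The wildtype array numbered 2 lay between the Sox17+/- values, so Sdhd overlapped (log2 difference -0.16). Sdha, the flavoprotein that oxidises succinate, had 6380 and 6091 in Sox17+/- liver against 7028 and 6130 in wildtype liver, with overlap (log2 difference -0.07).

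Of the 4 genes, 2 were lower without overlap, against 18.7% of all tested genes, and 0 passed limma (adjusted p = 0.9999 for each). The highest signal of all 4 genes was on wildtype array 1. Without that array the median of the complex was -0.06, and without wildtype array 2 it was -0.30. Without Sox17+/- array 1 it was no longer the lowest, at -0.17, against -0.23 in complex III, -0.21 in complex IV and -0.19 in complex V. Other probe sets did not all go the same way. A second bright probe set of Sdha had 2745 and 3035 in Sox17+/- liver against 3408 and 3053 in wildtype liver. It was lower without overlap (log2 difference -0.16), while a dim probe set of Sdha had 0.12. The second probe set of Sdhc had -0.07, with overlap. A dimmer one for Sdhd had 1729 and 1500 in Sox17+/- liver against 1538 and 1030 in wildtype liver, a log2 difference of 0.35, and with all tested probe sets of each gene averaged the median of the complex was -0.09.

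**Figure D3:**
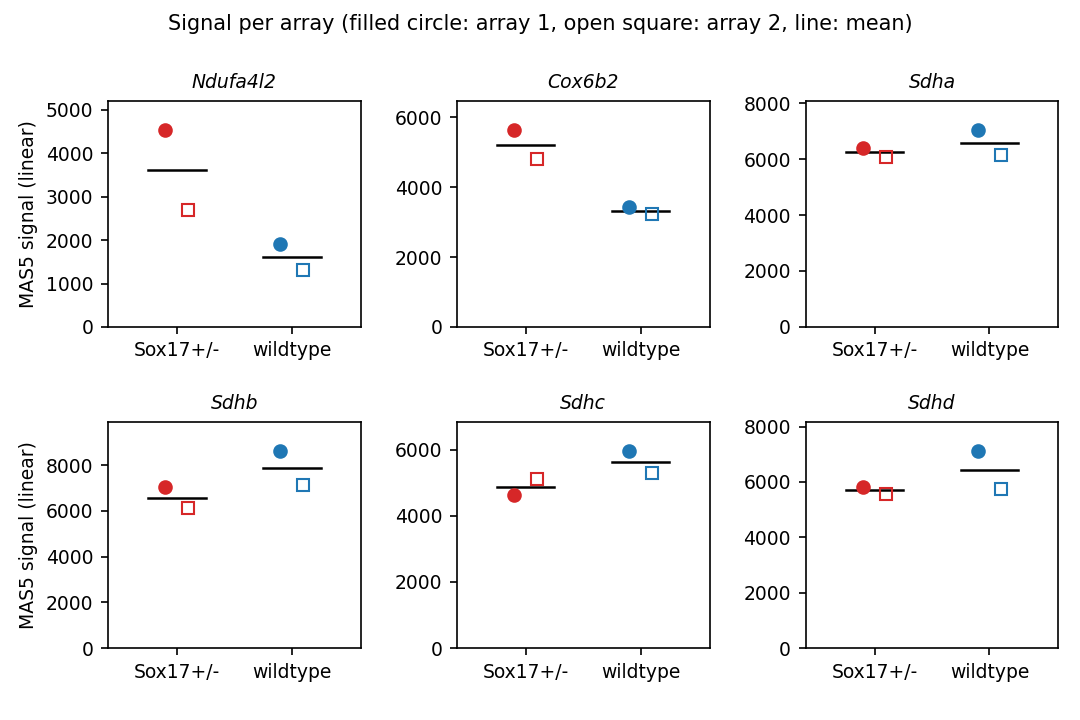
MAS5 signal on each array for Ndufa4l2, Cox6b2 and the 4 complex II genes, with Sox17+/- left of wildtype, filled circles for array 1, open squares for array 2 and a line at the mean of 2. Ndufa4l2 and Cox6b2 separate by genotype, Sdhb and Sdhc separate narrowly below wildtype, and Sdha and Sdhd overlap.

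The start regions of Sdha, Sdhb and Sdhd are shown because the complex II genes lay on the same side of wildtype. No start region was matched for Sdhc, the other of the 4 genes. Whether the motifs bear on the direction was not tested. Capitals mark the same 4 motifs in 300 bases of RefSeq sequence (GRCm38.p6), at chr13:74350191-74350490 on the minus strand for Sdha, chr4:140961021-140961320 on the plus strand for Sdhb and chr9:50603800-50604099 on the minus strand for Sdhd.
Sdha: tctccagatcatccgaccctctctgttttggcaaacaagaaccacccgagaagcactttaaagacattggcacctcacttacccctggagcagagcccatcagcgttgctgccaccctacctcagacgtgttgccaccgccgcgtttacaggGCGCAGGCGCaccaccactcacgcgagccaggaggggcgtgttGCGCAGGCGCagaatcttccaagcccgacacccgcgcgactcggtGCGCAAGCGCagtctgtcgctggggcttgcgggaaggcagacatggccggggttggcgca
Sdhb: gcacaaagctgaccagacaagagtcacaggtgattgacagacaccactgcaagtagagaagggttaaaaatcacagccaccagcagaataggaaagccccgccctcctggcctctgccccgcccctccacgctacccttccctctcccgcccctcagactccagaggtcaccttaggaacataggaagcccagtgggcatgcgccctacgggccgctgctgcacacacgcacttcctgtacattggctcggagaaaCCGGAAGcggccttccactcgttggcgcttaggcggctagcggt
Sdhd: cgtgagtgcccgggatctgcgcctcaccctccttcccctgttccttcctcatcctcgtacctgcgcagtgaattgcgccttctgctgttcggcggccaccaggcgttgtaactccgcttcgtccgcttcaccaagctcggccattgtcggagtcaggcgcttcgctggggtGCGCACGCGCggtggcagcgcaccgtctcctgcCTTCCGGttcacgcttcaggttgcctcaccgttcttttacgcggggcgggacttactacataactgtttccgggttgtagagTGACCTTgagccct
Sdha held 3 NRF1 matches, the first at bases 153 to 162. Sdhb held an ETS match at bases 257 to 263, just past the start. Sdhd held an NRF1 match, an ETS match and, at bases 287 to 293, an ERR match.

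The members shared these motifs more widely. Start regions were matched for 65 of the 78 members. NRF1 matches stood in 23.1% of them, against 7.17% of 17491 protein-coding genes with a start region of the same length, and ETS matches in 26.2%, against 12.9%. YY1 matches stood in 9.23%, against 2.14%, and ERR matches in 12.3%, against 4.73%. Complex V had NRF1 and ETS matches in 6 genes each of 15, and complex I had them in 5 and 4 of 31. The core of the hypoxia response element (ACGTG or GCGTG) stood in 67.7% of member regions, against 52.3%. It can overlap an NRF1 match, and the ETS and YY1 motifs can overlap each other. The median GC content was 58.7% in member regions and 56.3% in those of protein-coding genes. A match is a run of letters and was not tested as a binding site.

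Complex I was covered by 34 tested genes, of which 1, Ndufa4l2, was higher without overlap and 3 were lower. These are 2.94% and 8.82%, against 14.5% and 18.7% of all tested genes. The 6 core subunits, which carry the flavin, the iron-sulphur clusters and the ubiquinone site, had a median log2 difference of -0.01 and 0 genes apart. The 28 accessory genes had a median of -0.04. Ndufb1, an accessory subunit, had 313 and 312 in Sox17+/- liver, against 459 and 363 in wildtype liver, a log2 difference of -0.37 with a standard error of 0.22. Ndufb10 had 5111 and 5001 against 6301 and 5154 in wildtype, and Ndufb9 had 10348 and 10825 against 12166 and 10873 in wildtype. In pair 2 the differences of the last pair of genes were only -0.04 and -0.01. Ndufa6, an accessory subunit of the LYR family, was above wildtype in both pairs, with 6949 and 5627 against 6347 and 5207, but the genotypes overlapped. Ndufb5 had 4696 and 4303 against 5707 and 4316 in wildtype, and the Sox17+/- array 1 lay within the wildtype range. Ndufs8, an iron-sulphur subunit of the core, had 11776 and 12636 against 13100 and 11883 in wildtype, with overlap. Its other probe sets did not all overlap. A bright one had 7827 and 7351 against 8636 and 8288 in wildtype, lower without overlap (log2 difference -0.16). Less bright ones, at -0.13 and -0.13, were also lower without overlap. Another bright one, at -0.10, and a dim one, at 0.17, overlapped.

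Complex III had 8 tested genes, 1 of them lower without overlap and 0 higher, against 18.7% and 14.5% of all tested genes. Uqcr10, a small accessory subunit, had 7784 and 6392 in Sox17+/- liver against 8196 and 7855 in wildtype liver (log2 difference -0.19). Uqcrfs1, the Rieske iron-sulphur protein that oxidises ubiquinol, had 8211 and 6165 against 9255 and 7868 in wildtype. Its difference was -0.26 with a standard error of 0.24, at -0.17 and -0.35 in the pairs, and 1 Sox17+/- array lay within the wildtype range. The core proteins Uqcrc1 and Uqcrc2 had differences of -0.12 and 0.03. Uqcr11 had -0.14 and Uqcrb, the ubiquinone-binding subunit, -0.03. Uqcrh, the hinge protein beside cytochrome c1, and Uqcrq lay on the other side, at 0.13 and 0.11, above wildtype in both pairs but with overlap. A second bright probe set of Uqcrh had 13612 and 11441 in Sox17+/- liver against 10913 and 9673 in wildtype liver, higher without overlap (log2 difference 0.28). The dim probe sets of Uqcrq disagreed, at -0.53 and 0.63, with signals between 57.2 and 149.

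Complex IV had a median of 0.03 as deposited, at 0.11 in pair 1 and -0.06 in pair 2. The sign of this median depends on the scaling, at -0.0040 with quantile normalization and 0.073 with median centring, where complex I was also above 0, at 0.012. Of its 12 tested genes 1 was higher and 1 lower without overlap, against 14.5% and 18.7% of all tested genes. Cox6c had 18460 and 12655 in Sox17+/- liver against 15923 and 12728 in wildtype liver, a difference of 0.10. Cox8a had 6405 and 5640 in Sox17+/- liver against 5449 and 5816 in wildtype liver, a difference of 0.09. On these probe sets Cox6c and Cox8a both overlapped. A second bright probe set of Cox8a had 5539 and 5738 in Sox17+/- liver against 4741 and 5333 in wildtype liver. It was higher without overlap (log2 difference 0.16), while a dim one, not tested, overlapped. Cox7c had signals of 21.6 and 180 in Sox17+/- liver against 152 and 169 in wildtype liver. Its log2 difference of -1.04 came from Sox17+/- array 1 alone, and without that array it was 0.15. The probe set is dim, at the 57.1 percentile of all probe sets.

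Complex V had 17 tested genes, of which 1 was lower without overlap and 0 higher, against 18.7% and 14.5% of all tested genes. The 5 genes of the catalytic F1 part had a median log2 difference of -0.06. The 3 genes of the proton-carrying c ring had -0.10, the 4 of the peripheral stalk -0.07 and the 5 small membrane subunits 0.02. Atp5j, of the stalk, had 6878 and 6488 in Sox17+/- liver against 7888 and 6905 in wildtype liver (log2 difference -0.14). Atp5g1, one of the genes that encode the same c subunit, had 7002 and 5718 against 8015 and 6446 in wildtype, a difference of -0.18 that was -0.19 and -0.17 in the pairs, yet overlapped. Its counterpart Atp5g3 had 24501 and 16845 against 25826 and 18305 in wildtype. Atp5b, the catalytic beta subunit, had 26775 and 20109 against 28185 and 20399 in wildtype (difference -0.05). Atp5pb and Atp5j2 had differences of -0.11 and -0.09. Atp5mpl, a small membrane subunit, was the highest, at 0.13 in the fit and 10104 and 8506 against 9131 and 7807 in wildtype.

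Chain genes that the rule does not reach also lay near wildtype. Of 6 tested, among them Cyc1, Cox4i1 and Cycs, 0 were apart in either direction, with a median log2 difference of -0.06. Cox7a2l had 0.19, Atpif1, the inhibitor of complex V, 0.14, and Cycs, cytochrome c, -0.11. The single mitochondrially encoded gene named on the array, ND5, had 16480 and 15700 in Sox17+/- liver against 22858 and 14053 in wildtype liver, with overlap.

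Genes that build the chain are set beside its subunits. Of 37 tested assembly factors, 12 were lower and 3 higher without overlap, or 32.4% and 8.11%, against backgrounds of 18.7% and 14.5%, with a median log2 difference of -0.13. Ndufaf6, an assembly factor of complex I, had 712 and 710 in Sox17+/- liver, against 1137 and 1150 in wildtype liver. The log2 difference was -0.67 with a standard error of 0.19, and the replicates of each genotype were close together. Ndufaf3 had 785 and 844 against 1005 and 1076 in wildtype, and Ndufaf5 had 277 and 223 against 335 and 312 in wildtype. Of 76 genes of the mitochondrial ribosome, which translates the mitochondrially encoded subunits, 32 were lower and 5 higher without overlap, or 42.1% and 6.58%, with a median of -0.12. Mrps24 had 1834 and 1772 in Sox17+/- liver against 2501 and 2345 in wildtype liver. Mrps2 had 1309 and 1345 against 1979 and 1635 in wildtype, and Mrpl49 had 884 and 927 against 1158 and 1179 in wildtype. None of the genes of these lists passed limma after adjustment. Whether these shares differ from that of the chain members, 10.7% lower, was not tested. The shares of these lists were taken with the deposited scaling only. The lists also differed less between array numbers than the chain members did. In Sox17+/- and wildtype liver these medians were 0.07 and 0.10 for the mitochondrial ribosome and 0.03 and 0.10 for the assembly factors. For the chain members they were 0.30 and 0.28. The part of the array number in the shares was not tested.

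**Figure D4:**
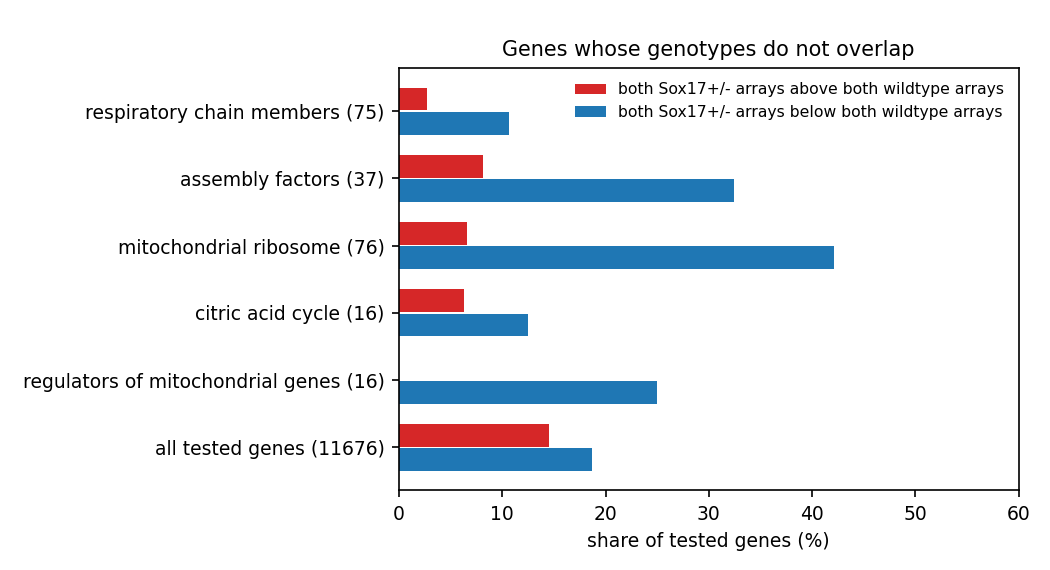
Share of tested genes (%) whose Sox17+/- arrays both lay above (red) or both below (blue) the wildtype arrays, for the chain members, 4 related gene lists and all tested genes, with the number of tested genes in brackets. With the deposited scaling, the mitochondrial ribosome reaches 42.1% lower and the assembly factors 32.4%, against 18.7% of all tested genes and 10.7% of the chain members.

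The citric acid cycle and the regulators of mitochondrial genes are given for comparison. Of 16 tested cycle genes, 2, Idh3a and Suclg2, were lower and 1, Pdha1, was higher without overlap (median -0.06), against 18.7% and 14.5% of all tested genes. Pdha1, of pyruvate dehydrogenase, had 2815 and 2641 in Sox17+/- liver against 2534 and 2450 in wildtype liver. Suclg1, which makes succinate, had 5007 and 4512 in Sox17+/- liver against 7050 and 4984 in wildtype liver, with overlap. Fh1, which takes up the fumarate that complex II makes, had 4252 and 3595 against 5472 and 4031 in wildtype, also with overlap. Suclg2 had 3606 and 3677 against 4443 and 3977 in wildtype. Of 16 regulators, 4 were lower and 0 higher without overlap (median -0.12), against 18.7% and 14.5% of all tested genes. Esrra, the receptor that binds the ERR motif, had 346 and 324 in Sox17+/- liver against 471 and 361 in wildtype liver. Tfb1m, which modifies mitochondrial ribosomal RNA, had 732 and 724 against 878 and 855 in wildtype. Polrmt, the mitochondrial RNA polymerase, had 429 and 655 against 739 and 643 in wildtype, with overlap, and Ppargc1a, a coactivator of mitochondrial genes, had a log2 difference of 0.01.

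Markers of the main cell types were set beside these values. Counts of markers apart are set against 14.5% of all tested genes higher and 18.7% lower. Of 11 hepatocyte markers 0 were apart, with summed signals of 405917 and 246340 in Sox17+/- liver against 420806 and 258210 in wildtype liver. Of 9 tested erythroid markers 2 were higher and 2 lower, and the sums over all 10 on the array were 135688 and 120342 against 135904 and 125339 in wildtype. Neutrophil markers had 0 of 9 apart. Macrophage markers had 1 higher and 3 lower of 7, with log2 differences from -1.68 for Vsig4 to 1.03 for Marco. Endothelial markers had 4 higher and 1 lower of 7, from -0.56 for Tek to 3.72 for Esm1, and 0 of these genes passed limma after adjustment. Of the brown fat list 1 gene and of the bile duct list 2 were bright enough to test, with 0 apart. The hepatocyte and neutrophil sums differed between array numbers far more than between genotypes, as the chain genes did. The part of cell composition in the members' values was not tested.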

How the data were processed

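Total RNA of fetal liver was labelled with biotin and hybridised to single-colour arrays, per the labels' protocols. The deposited values are intensity values per probe set, made by the authors with MAS5, per the submitters' processing notes. The version and the probe genome build are not given in the sources used here. MAS5 reads each array alone, so dim signals are noisy and a common scaling removes differences in total RNA. The number of arrays limits the precision.

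Of 45101 probe sets, 64 controls were left out. Symbols came from the platform annotation, with 34945 probe sets naming 1 gene, 932 several and 9160 none listed here. The brighter 50% by mean signal, 22519 probe sets, were tested on log2(signal + 16) with limma 3.58.1 in R 4.3.3 (lmFit, eBayes, genotype as the only term, 2 residual and 3.06 prior degrees of freedom) and Benjamini-Hochberg adjustment. An exact permutation test of 2 against 2 arrays cannot go below a two-sided p of 0.333. The code was checked on simulated arrays with planted differences. Genes were named as all members of complexes II and III, the 6 with the smallest p in each of complexes I, IV and V, the brightest member of each complex, isoform pairs, members with discordant probe sets and up to 3 genes of each related list. Pdk1, Hif1a, Cox4i2, Idh3a, Pdha1 and the pericyte genes were named after their values were seen. Members and lists were chosen with earlier results of these data known. Arrays with the same number in the 2 genotypes departed from their genotype means alike (r = 0.383 over 22519 probe sets), though the labels do not say what the number marks. Alternatives were 2 other pseudocounts, 2 other filters, median centring, quantile normalization, another prior, the array number as a block, all probe sets of a gene averaged, and each array left out.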

Additional observations from a re-analysis of the deposited data

How the results depend on the processing

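Limma called 0 probe sets in the main analysis, with 916 at an unadjusted p under 0.05, and 0 under every alternative but median centring (3) and the trended, robust prior (3), and none of these was a member's. With the array number as a block it called 0, with 1673 unadjusted, and the adjusted p was 0.628 for Ndufa4l2 and 0.649 for Cox6b2. The block leaves every difference and overlap count as it was, and averaging probe sets was not run for the limma calls. With quantile normalization 30.7% of members were lower without overlap, against 19.0% of all genes, and with median centring 1.33%, against 11.1%. The counts of members apart from wildtype, 2 higher and 8 lower, became 4 and 23 with quantile normalization, while the lower count became 1 with median centring. Without 1 array they ran from 3 to 34 higher and from 9 to 52 lower, where a lone array has less to overlap. Without Sox17+/- array 1, 69.3% of members were lower, against 34.7% of all genes, and without wildtype array 2, 52.0% against 37.7%. Without Sox17+/- array 2, 45.3% were higher, against 29.1%, and without wildtype array 1, 25.3% against 30.2%. The complex IV median ran from -0.21 to 0.20 and that of all members from -0.18 to 0.13 without 1 array, while that of complex II kept its sign, from -0.30 to -0.06. Of 476 values for 37 named members under the alternatives, 46 turned sign. With median centring these were Uqcrb (0.021), Ndufs8 (0.014), Cox6a1 (0.044) and Ndufa4 (0.012), and with all probe sets of a gene averaged Sdhd (0.093) and Cox6a1 (0.072). The others turned when 1 array was left out. The range was -0.28 to 0.19 for Atp5b, -0.37 to 0.17 for Atp5g3, -0.28 to 0.10 for Atp5j2, -0.32 to 0.10 for Atp5pb, -0.31 to 0.30 for Cox6a1, -0.16 to 0.42 for Cox6a2, -0.31 to 0.21 for Cox6b1 and -0.17 to 0.37 for Cox6c. It was -0.38 to 0.49 for Cox7a1, -0.23 to 0.36 for Cox7a2, -2.23 to 0.15 for Cox7c, -0.15 to 0.082 for Ndufa4, -0.031 to 0.27 for Ndufa6, -0.34 to 0.059 for Ndufb5, -0.10 to 0.038 for Ndufs8 and -0.17 to 0.024 for Sdha. It was -0.31 to 0.036 for Uqcr11, -0.24 to 0.19 for Uqcrb, -0.25 to 0.0035 for Uqcrc1, -0.33 to 0.39 for Uqcrc2, -0.13 to 0.40 for Uqcrh and -0.13 to 0.36 for Uqcrq. The cause was not tested. Of the 37 named members, 14 kept their sign under all alternatives run, Ndufa4l2 and Cox6b2 among them. Neither Ndufa4l2 nor Cox6b2 passed adjustment in any fit with all 4 arrays.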
